A study of Mus musculus with 32 samples.

Results

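Small nucleolar RNAs, small Cajal body RNAs and small nuclear RNAs were examined in 4 tissues of *Gpr146* knockout mice and their wild-type littermates. The members were taken by name from each tissue's table, as every gene symbol that starts with Snora, Snord, Scarna or Rnu followed by a digit. Of 24646 genes this gave 34 H/ACA RNAs (Snora), 64 C/D RNAs (Snord), 8 small Cajal body RNAs (Scarna) and 8 genes named Rnu, the same ones in each table, and no other member. For 110 of them the deposited identifier was a whole number, which was taken to mean 1 probe set. For Rnu1b1, Snora19, Snord1c and Snord116 it was not, which was taken to mean that several had been averaged. An average of identifiers can also be whole, so 110 is an upper limit. Near-identical copies, such as those of U1, U3, Snora73 or Snord116, may share probe signal, so a value of 1 copy is uncertain.

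All mice were male C57BL/6J animals, 20 weeks old according to the labels, fed a high-fat diet (HFD) for 3 months and fasted overnight before collection. Knockout mice lacked *Gpr146*, an orphan G protein-coupled receptor, in the whole body, and the controls were wild-type littermates on the same diet. Liver, epididymal white fat (eWAT), inguinal white fat (iWAT) and brown fat (BAT) were taken from 4 mice per genotype, and each tissue of each mouse was hybridized to 1 Affymetrix Mouse Gene 2.1 ST array (32 arrays). Bulk tissue was measured, so fewer cells of a type and less RNA per cell cannot be told apart, and a constitutive knockout does not say in which cells the receptor acted. Values are log2 signals, each tissue on a scale of its own. Knockout and wild-type levels were compared only within a tissue, and between tissues only the size of that difference was compared, never a level.

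Small nucleolar RNAs work inside ribonucleoproteins that modify or cut other RNAs. C/D RNAs carry the methyltransferase fibrillarin and guide methylation of ribosomal RNA, whereas H/ACA RNAs carry dyskerin and guide the change of uridine to pseudouridine. Small Cajal body RNAs do the same for spliceosomal RNAs. Most are cut from introns of a host gene, and a few, among them U3, have promoters of their own. The Rnu name covers unlike RNAs. Rnu1b1 and Rnu5g are copies of U1 and U5 of the major spliceosome, Rnu11 and Rnu12 belong to the minor spliceosome, Rnu7 trims histone mRNA ends, Rnu3a and Rnu3b1 are U3, a C/D RNA needed to cut the ribosomal RNA precursor, and Rnu73b is a C/D RNA of the U73 family.

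RefSeq sequence (GRCm38.p6) was at hand for a stretch of a few members. The first pair below shows the 3′ hairpins of Snora36b, which had one of the 5 largest rises in eWAT, and of Scarna13, the Cajal body RNA with the largest change there. Both stretches are also annotated as microRNA hairpins (Mir664 and Mir3069), which were not measured here. The Snora36b stretch is chr1:185242975-185243038 on the plus strand and covers 64 of its 113 nt, and the Scarna13 stretch is chr12:105031077-105031141 on the minus strand and covers 65 of its 275 nt. Capitals mark the ACA letters that stand 3 bases before the annotated 3′ end of the RNA, the box that gives the H/ACA class its name. The letters ACA occur somewhere in 67.3% of the 1005 hairpins in the same table, so only their place is of note.
Snora36b: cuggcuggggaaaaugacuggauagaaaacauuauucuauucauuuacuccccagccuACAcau
Scarna13: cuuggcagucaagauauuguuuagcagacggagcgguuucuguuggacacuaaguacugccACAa

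Scarna3a and Scarna3b are close copies on different chromosomes, in *Cop1* and *Dcaf5*, and are shown because only the first passed the test in eWAT. The stretches lie at chr1:159340358-159340421 on the plus strand and at chr12:80391614-80391677 on the minus strand, again within microRNA hairpins (Mir1843b and Mir1843a). Of 64 positions set side by side from the 5′ end, 58 were identical, and capitals mark the 6 that differed.
Scarna3a: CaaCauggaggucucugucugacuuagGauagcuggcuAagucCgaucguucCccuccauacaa
Scarna3b: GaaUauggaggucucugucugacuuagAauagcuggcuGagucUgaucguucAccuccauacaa

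The whole of Rnu7 (62 nt, chr6:124741225-124741286, minus strand) is shown as a member whose mean signal lay below that of the median gene in each tissue, as did that of Rnu5g. Capitals mark the letters AATTTGTCT, the site where its Sm-type protein ring binds. These letters, read on both strands, occur in 0.286% of the 32851 gene start windows of the RefSeq promoter table.
Rnu7: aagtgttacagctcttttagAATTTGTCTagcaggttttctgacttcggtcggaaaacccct

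Arrays of liver, eWAT, iWAT and BAT correlated across genes with r of at least 0.986, 0.960, 0.939 and 0.981 within the tissue. *Gpr146*, the targeted gene, was lower in all 4 knockout than in all 4 wild-type arrays of each tissue, with log2 changes of -1.77, -1.53, -1.55 and -1.16 in liver, eWAT, iWAT and BAT (limma adjusted p of 6.55e-06, 0.00823, 0.221 and 0.0727). Markers of the labelled tissue were high in each case, with means of at least 9.90 for hepatocyte genes in liver, 9.65 and 9.88 for adipocyte genes in eWAT and iWAT, and 8.58 for brown adipocyte genes in BAT. Some arrays stood apart by markers of other cells. In iWAT, the 5 B cell markers averaged 8.05 and 7.98 in wild-type mice 1 and 2, 7.61 in knockout mouse 2 and 5.85 in knockout mouse 4, against 3.15 to 3.42 in the other 4 arrays. In BAT, the 5 skeletal muscle markers averaged 6.76 and 7.81 in wild-type mice 2 and 3 and 7.93 in knockout mouse 2, against 3.06 to 4.06 in the others.

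Most small RNAs measured higher in knockout than in wild-type mice in each tissue. The median log2 change of the members was 0.71 in eWAT, 0.52 in BAT, 0.49 in iWAT and 0.29 in liver, against 0.03, 0.00, 0.02 and 0.01 over all genes. The change was above 0 for 102, 105, 102 and 110 members, respectively. By limma, a linear model with moderated variances and Benjamini-Hochberg adjustment over all genes, 55 members rose in eWAT, 3 in liver, 1 in BAT and 0 in iWAT at an adjusted p of 0.05, and none fell in any of these tissues. At an unadjusted p of 0.05, 80 members were higher and 2 lower in eWAT, where 12.4% and 17.4% of all genes were. In liver, 68 were higher and 0 lower, against 5.79% and 7.48% of all genes. In iWAT, 51 were higher and 0 lower (7.09% and 8.34%), and in BAT 74 and 2 (5.25% and 7.44%).

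**Figure D1:**
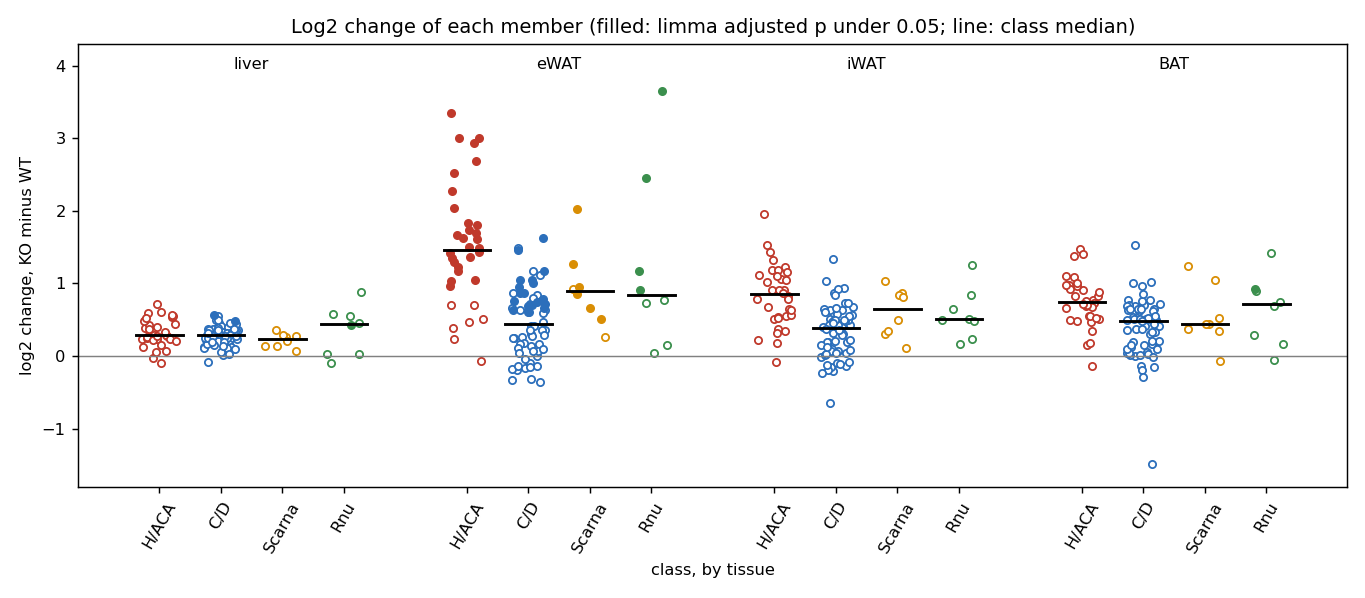
Log2 change (knockout minus wild-type) of each member, by class and tissue. Points are members, filled where limma's adjusted p was under 0.05, and lines are class medians, the highest of which is 1.46 for H/ACA RNAs in eWAT.

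In eWAT, the lowest knockout value exceeded the highest wild-type value for 71 members, as it did for 8.63% of all genes, and 0 members stood wholly below, against 13% of all genes. The 55 calls compare with 4.57% of all genes called higher and 10.7% called lower. H/ACA RNAs made up 27 of the calls, out of 34 measured, and had a median log2 change of 1.46. For C/D RNAs the median was 0.44 and 18 of 64 rose, for Scarna 0.89 and 6 of 8, and for Rnu 0.84 and 4 of 8. The count fell to 31, 34 and 29 when wild-type mouse 2, 3 or 4 was left out, and was 63 without knockout mouse 3.

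The class means by mouse show the spread behind these counts. The H/ACA mean was 5.33, 5.35, 5.14 and 5.23 in wild-type eWAT and 6.38, 6.72, 7.54 and 6.52 in knockout eWAT. The C/D mean was 5.86, 5.86, 5.71 and 5.71 in wild-type and 5.99, 6.18, 6.78 and 6.05 in knockout mice. Knockout mouse 3 was the highest of the 4 in every class, and even the lowest knockout mouse, mouse 1, was above each wild-type mouse. Without knockout mouse 3, the median log2 change of all members was 0.51. The same array had the highest B cell marker mean of the depot (5 of 5 markers measured), 4.32 against 2.57 to 3.00 in the other 7, and its part in the result was not tested beyond leaving that array out.

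**Figure D2:**
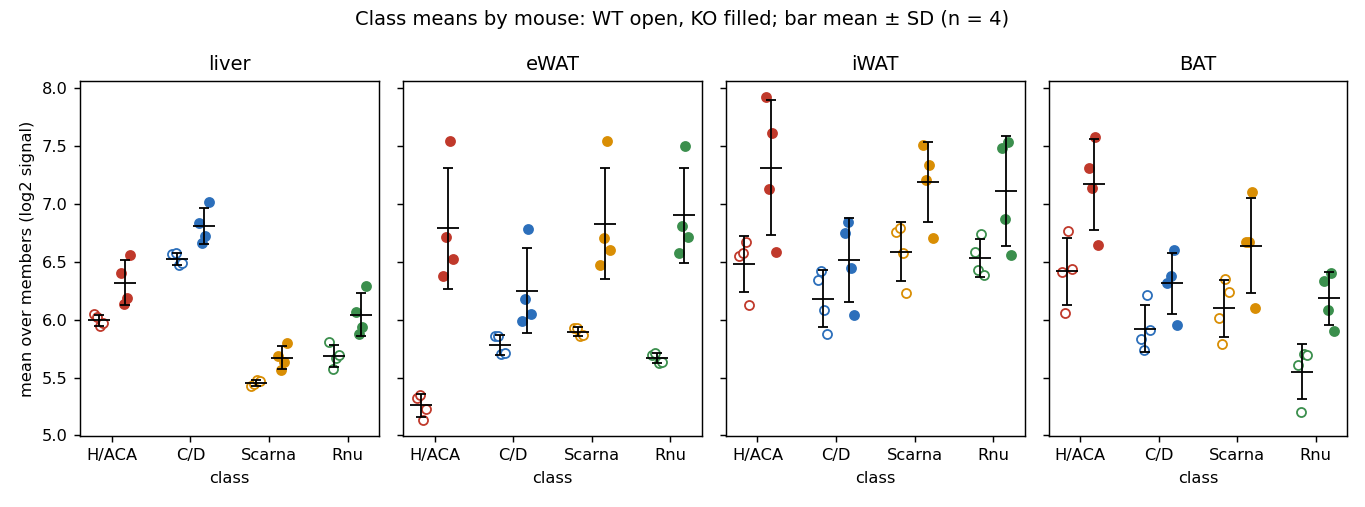
Mean log2 signal over the members of a class in each mouse (open wild-type, filled knockout, bars mean ± SD, n = 4), by tissue. In eWAT the 4 knockout mice lie above the 4 wild-type mice in each class. The lowest knockout mouse reaches the wild-type range in each class in iWAT, and for H/ACA, C/D and Scarna members in BAT.

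The largest rises in eWAT were those of Rnu3a, Snora75, Snora30, Snora36b and Snora81. Rnu3a, a copy of U3, measured 5.75, 5.66, 5.51 and 5.55 in wild-type and 8.67, 8.80, 10.45 and 9.16 in knockout mice. The gap between the groups was wider than either group's range, and the log2 change was 3.66 (standard error 0.33, limma adjusted p = 0.00352), a 12.6-fold difference. Snora75 measured 5.21, 5.54, 5.46 and 5.77 in wild-type and 8.84, 8.78, 8.50 and 9.29 in knockout mice. Its log2 change of 3.36 (standard error 0.17) came with an adjusted p of 0.000146 by limma, and no gene of the depot had a smaller one.

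Snora30 measured 4.83, 4.86, 4.40 and 4.65 in wild-type and 6.69, 8.10, 8.48 and 7.50 in knockout mice, a log2 change of 3.01 (standard error 0.33). Snora36b, shown above, ran from 2.65 to 4.10 in wild-type and from 5.30 to 8.09 in knockout mice, and rose by 3.00 (standard error 0.58). Snora81 ran from 5.67 to 6.26 and from 8.31 to 10.41, and rose by 2.94 (standard error 0.40). The groups of these H/ACA RNAs did not overlap, and their adjusted p values from limma were 0.00538, 0.0124 and 0.00782.

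Further members were picked out after their values were seen. Snora73a and Snora73b, which help to cut the 18S precursor rather than to modify bases, rose by 2.04 and 2.28, and Snora74a rose by 2.52. Among the members named Snord that passed the test in eWAT, the largest rises were those of Snord66 (1.63) and Snord118 (1.46). Snord118 is U8 and serves the maturation of 5.8S and 28S RNA. The U3 genes, of C/D type but counted under Rnu, rose more. Snord13 differed by 1.49 with overlapping groups (limma adjusted p = 0.168). The lowest were Snord19 at -0.36, Snord72 at -0.33 and Snord14a at -0.32, none of which passed the test. Members whose mean lay below the median gene of the table were rarely called, 1 of 18 (Snord90) against 54 of the other 96.

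The second U3 copy, Rnu3b1, which may share probe signal with Rnu3a, also rose in eWAT. It went from 7.95 to 8.05 in wild-type to 10.04 to 11.19 in knockout mice, a log2 change of 2.46 (limma adjusted p = 0.00352). The U1 gene Rnu1b1 rose by 1.17 and the minor-spliceosome RNA Rnu11 by 0.91 (adjusted p of 0.0259 and 0.0100). Rnu11 measured 8.12 to 8.39 in wild-type and 8.87 to 9.59 in knockout mice, with no overlap. Rnu12, its partner in the minor spliceosome, differed by 0.72 and Rnu73b by 0.77 without passing the test (adjusted p of 0.0595 and 0.112). Rnu5g and Rnu7 stood at 1.37 to 2.00 in all 8 arrays, with differences of 0.15 and 0.04, and at so low a signal a change may go unseen.

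Of the small Cajal body RNAs, Scarna13 rose most in eWAT, from 4.39 to 4.47 in wild-type to 6.03 to 7.51 in knockout mice, a log2 change of 2.03 (standard error 0.29, limma adjusted p = 0.00823). Scarna3a rose by 1.27, Scarna10 by 0.95, Scarna17 by 0.85, Scarna2 by 0.67 and Scarna6 by 0.52. The groups of all 6 were apart. Scarna8 differed by 0.93 with overlapping groups (adjusted p = 0.170). Scarna3b, the copy of Scarna3a, measured 6.22 to 6.47 in wild-type and 6.26 to 6.87 in knockout mice and differed by 0.26 (adjusted p = 0.205), and whether the copies differed from each other was not tested.

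In liver, the class medians were 0.28 for H/ACA, 0.30 for C/D, 0.24 for Scarna and 0.44 for Rnu members. All 4 knockout livers lay above all 4 wild-type livers for 43 members and below for 0, while 3.62% and 4.16% of all genes did so. Snord17, Snord82 and Rnu73b, all of C/D type, passed the test, against 0.162% of all genes called higher and 0.499% called lower. Snord82 measured 8.59, 8.75, 8.66 and 8.60 in wild-type and 9.22, 8.99, 9.01 and 9.34 in knockout livers. Its log2 change was 0.49 (standard error 0.09, limma adjusted p = 0.0427). Snord17 rose by 0.57 and Rnu73b by 0.42 (adjusted p of 0.0434 and 0.0484). These calls lay close to the threshold. Without knockout mouse 2 there were 12 members called, without knockout mouse 3 there was 1, and without any of the other 6 mice there were 0.

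Rnu3a had the largest difference in liver too, 0.88, from 4.42 to 4.97 in wild-type to 5.09 to 6.27 in knockout livers, but did not pass the test (limma adjusted p = 0.118). Rnu11 differed by 0.02 in liver. Rnu3b1 differed by 0.58, Rnu1b1 by 0.55 and Rnu12 by 0.45, and the Cajal body RNAs by 0.06 (Scarna3a) to 0.36 (Scarna17).

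In iWAT, 0 members passed the limma test over all 8 arrays, as did 0% of all genes in either direction. The knockout group stood wholly above the wild-type group for 9 members, against 4.29% of all genes, and wholly below for 0, against 3.86%. The 3 members with the smallest p were Snord13, Snora52 and Snora68. Snord13 (U13), which pairs with 18S RNA at a site of acetylation, measured 6.92, 7.01, 6.52 and 6.47 in wild-type and 8.67, 7.91, 8.05 and 7.64 in knockout iWAT. The groups were apart, with a log2 change of 1.34 (standard error 0.22) at an adjusted p of 0.221 by limma. Snora52 differed by 1.07 and Snora68 by 1.44, at the same adjusted p. H/ACA RNAs had a median of 0.85 and C/D RNAs of 0.39. Among the Rnu and Cajal body RNAs of iWAT, differences ran from 0.10 (Scarna3b) to 1.26 (Rnu3a).

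The arrays with B cell genes lie in both genotypes. When the 4 of them were left out, a step chosen after the data were seen that leaves 2 mice per genotype, 50 members rose and 0 fell by limma. In that fit 0.832% of all genes were called higher and 2.88% lower. The arrays left out held the 2 highest wild-type means over all members, 6.45 and 6.50, against 6.34 and 6.01 in those kept. They also held the lowest knockout mean, 6.28 in mouse 4, besides 6.96 in mouse 2, against 7.20 and 6.93 in those kept. Leaving them out thus widens the difference between the genotypes. The 50 were 24 H/ACA, 16 C/D, 5 Scarna and 5 Rnu members, and the median log2 change of all members was 0.86. Of the 55 members called in eWAT, 33 (60%) were among them, which is 66% of the 50. Both lists hold a large part of all members, so many would be shared even if the calls were unrelated. The overlap to be had without any relation was not computed, and no agreement between the depots is drawn from these shares. Snora36b then differed by 3.06 and Snora68 by 2.17 (adjusted p of 0.0133 and 0.0176). With the B cell marker mean as a covariate in all 8 arrays, the count was 0. Markers of other cells moved with genotype in the 4 arrays kept. The mean of the 7 macrophage markers measured was 6.52 and 6.60 in wild-type mice 3 and 4 and 4.89 and 5.41 in knockout mice 1 and 3. That of the 5 brown adipocyte markers was 4.39 and 3.91 against 4.96 and 5.27. Their part in the result was not tested. Over all 8 iWAT arrays the list medians were -0.96 and 0.56, with 0 genes of either list past the limma test.

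In BAT, Rnu12 of the minor spliceosome was the 1 member that rose, against 0.00406% of all genes called higher and 0.0243% called lower. It measured 6.13, 6.06, 6.51 and 6.40 in wild-type and 7.30, 7.13, 7.31 and 7.02 in knockout mice, a log2 change of 0.92 (standard error 0.12, limma adjusted p = 0.0483). It no longer passed when any array other than that of wild-type mouse 1 was left out, nor when the 3 arrays with muscle genes were left out (log2 change 0.95, adjusted p = 0.422). The knockout group stood wholly above the wild-type group for 21 members, against 3.31% of all genes, and wholly below for 2 (Snora35 and Snord88c), against 3.92%. The median difference was 0.74 for H/ACA and 0.48 for C/D RNAs. Rnu3a differed by 1.41, Rnu1b1 by 0.90 and Scarna13 by 1.24, none of them past the test. Knockout mouse 4 had the lowest class mean of the knockout mice in iWAT and in BAT for all 4 classes.

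Snord14e ran against the other members in BAT and is named for that reason, after its values were seen. It is a copy of U14, a C/D RNA of 18S processing, and lies in *Hspa8*, a heat shock cognate chaperone gene. It measured 7.76, 8.20, 8.47 and 6.97 in wild-type and 6.66, 5.98, 6.97 and 5.83 in knockout BAT, a difference of -1.49 on the log2 scale (standard error 0.33, limma adjusted p = 0.130). *Hspa8* differed by -0.75 in the same arrays (adjusted p = 0.151). In the other tissues Snord14e differed by 0.28 to 0.37. The contrast of eWAT with BAT was 1.85 for this RNA (limma adjusted p = 0.0137).

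**Figure D3:**
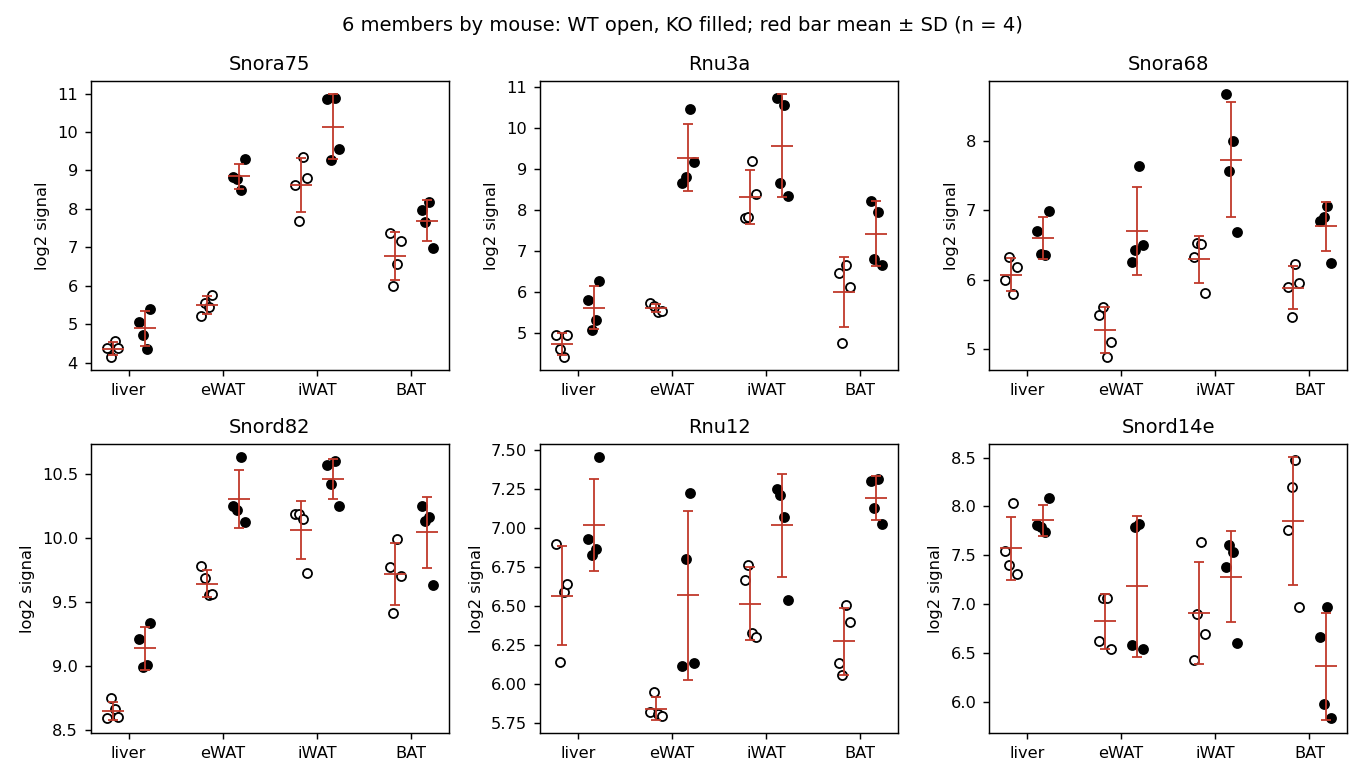
Log2 signal of 6 members in each mouse (open wild-type, filled knockout, red bars mean ± SD, n = 4) by tissue, each panel with its own scale, and levels are not comparable between tissues. Snora75 and Rnu3a show their widest gap in eWAT, Snora68 has no overlap in any tissue, and Snord14e is lower in knockout BAT.

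Snora68 was the only member whose knockout values stood clear above the wild-type values in all 4 tissues, a pattern shared by 0.0406% of all genes. Its difference was 1.44 in iWAT, 1.43 in eWAT, 0.88 in BAT and 0.53 in liver, and only that in eWAT passed the limma test (adjusted p = 0.0144). Knockout values stood above wild-type values in 3 tissues for 13 members (0.264% of all genes), in 2 for 32 (2.1%), in 1 for 37 (14.7%) and in none for 31 (82.9%). The smallest p an exact permutation test of 4 against 4 mice can give is 0.0286, which such a member reaches in each tissue.

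The knockout effect was then compared between eWAT and each other tissue in a joint limma fit of all 32 arrays, which sets the within-tissue differences against each other. This fit took the arrays as independent, although the tissues share mice, and used 1 variance per gene for all tissues. The spread differed between tissues, with an SD of the mean over all members from 0.04 in wild-type liver to 0.42 in knockout eWAT. With the mouse as a random block, the counts against liver, iWAT and BAT stayed within the margin set for an unchanged count. The knockout effect was greater in eWAT than in liver for 19 members and smaller for 0, where 2.33% and 4.35% of all genes were called. The 19 were 15 H/ACA RNAs, Scarna13, Rnu3a, Rnu3b1 and Rnu11, and no C/D RNA by name. Snora75 differed most, with an effect larger by 2.83 on the log2 scale (standard error 0.49, limma adjusted p = 0.00079). The count was 12 without knockout mouse 3 of eWAT.

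Against BAT, the effect in eWAT was greater for 9 members and smaller for 0 (2.26% and 4.25% of all genes). These were Snora75, Snora81, Snora30, Snora52, Snora34, Snora47, Rnu3a, Rnu3b1 and Snord14e, the last through its lower value in BAT. This count depended on single arrays, with 3 to 5 members when wild-type mouse 3 or 4 or knockout mouse 3 of eWAT, or wild-type mouse 1, 3 or 4 or knockout mouse 2 or 4 of BAT, was left out. Against iWAT, 0 members passed in either direction (0.243% and 0.909% of all genes), although 18 were greater and 0 smaller at an unadjusted p of 0.05 and the median difference was 0.25. Up to 5 passed when 1 array was left out, namely 5 without knockout mouse 2 of eWAT or knockout mouse 1 of iWAT, and 1 without knockout mouse 1 of eWAT, wild-type mouse 2 or 4 of iWAT or knockout mouse 3 of iWAT.

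The genes that contain the members were examined next. The span of another annotated gene held 103 of the 112 members matched to the RefSeq gene table, 77 of them in protein-coding and 26 in long noncoding RNA genes, and 9 lay in no other gene. Strand is not given in that table, so containment does not show that the member is cut from that transcript. For 95 members the containing gene was measured, 74 genes in all. In eWAT, the members' median log2 change was 0.74 and that of the containing genes was -0.02. Of 48 members that rose, the containing gene rose for 3 and fell for 3, where limma called 4.57% of all genes higher and 10.7% lower. Across the 95 pairs, Pearson's r was 0.125 and Spearman's rho 0.124, a description over genes measured on the same arrays and partly sharing a host.

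*Ncl*, which encodes nucleolin and holds Snora75 and Snord82, differed by 0.02 in eWAT. *Srcap*, which holds Snora30, differed by -0.18 and *Rab3gap2*, which holds Snora36b, by 0.06. *Eif4a2*, a translation initiation factor gene that holds Snora81, rose by 0.40 (limma adjusted p = 0.0477), far less than the RNA inside it. *Nop56*, which encodes a core C/D protein, rose by 0.79, close to the 0.76 of its intronic Snord110, while Snord57 of the same gene stood at 0.17. *Ipo7*, *Ckap5* and *Ap1g1* fell by 0.74, 0.54 and 0.59 in eWAT while Snora23, Snord67 and Snord71 within them rose by 0.97, 1.04 and 0.79.

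**Figure D4:**
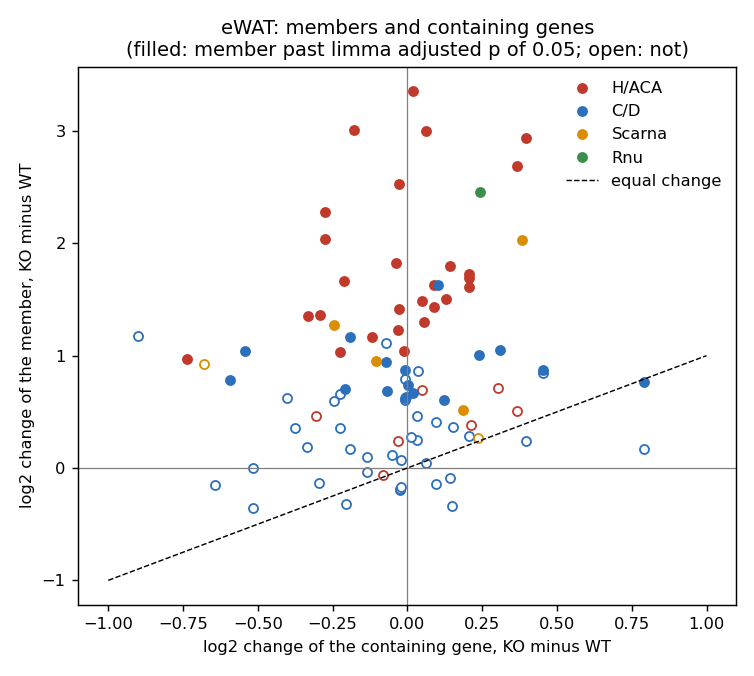
Log2 change in eWAT of 95 members against that of the gene that contains them, coloured by class, filled where the member passed limma's adjusted p of 0.05. The dashed line marks equal change, and 84 members lie above it.

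The genes *Ncl*, *Eif4a2* and *Snhg12* each held both classes, so that RNAs of 1 transcript unit could be set side by side. In eWAT, Snora75 rose by 3.36 and Snord82 by 0.66 in *Ncl*. Snora81 rose by 2.94 and Snord2 differed by 0.24 in *Eif4a2*. In *Snhg12*, a noncoding gene, Snora16a, Snora44 and Snora61 averaged 1.68 and Snord99 differed by 0.28. The H/ACA value was the larger in all 3 genes in liver, iWAT and BAT as well. The median over the 3 genes was 0.52 against 0.33 in liver and 0.92 against 0.15 in BAT. These values come from members taken to have 1 probe set each, and the difference between the classes was not tested.

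H/ACA RNAs are longer than C/D RNAs, and in eWAT longer members had larger changes. The annotated length was known for 112 members, with a median of 121 nt for H/ACA and 68 nt for C/D RNAs. In eWAT, members of up to 69 nt had a median log2 change of 0.60 (39 members), those of 70 to 99 nt 0.36 (27), those of 100 to 129 nt 1.27 (25) and those of 130 nt or more 1.63 (21). Spearman's rho between length and change was 0.561 over all members, 0.170 within H/ACA and 0.222 within C/D RNAs. Over all members it was 0.444 in iWAT, 0.445 in BAT and 0.144 in liver. Within H/ACA and within C/D RNAs it was 0.0757 and 0.0595 in iWAT, 0.109 and 0.0545 in BAT, and 0.231 and -0.128 in liver. These are descriptions across RNAs on the same arrays. Class and length overlap, and which of them the change went with was not tested.

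**Figure D5:**
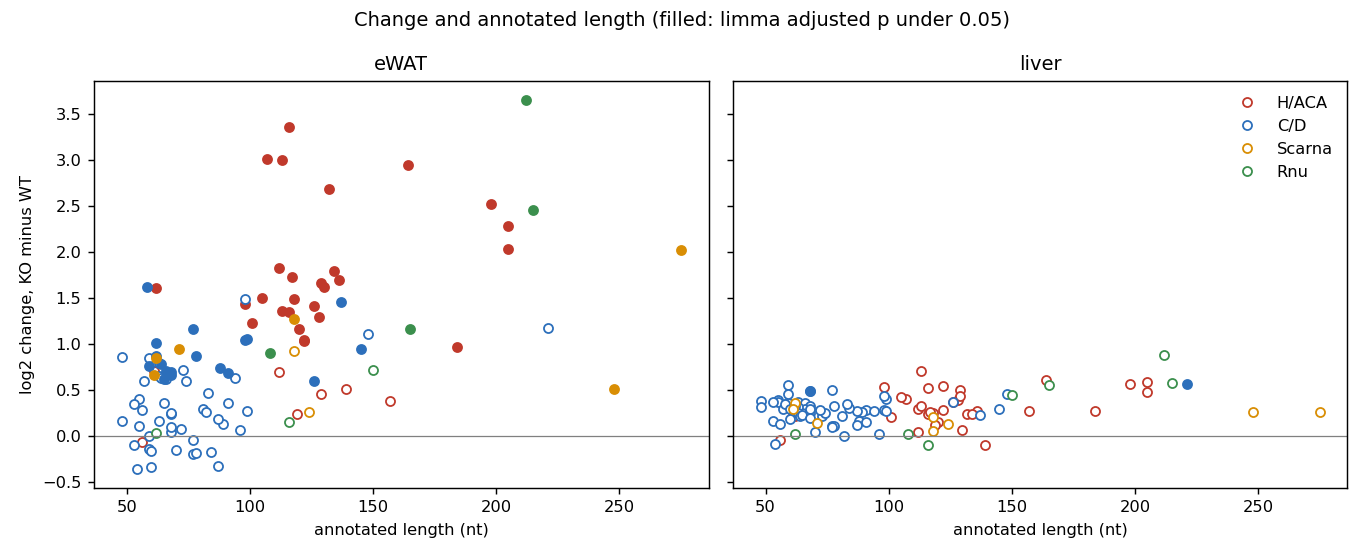
Log2 change against annotated length in eWAT and in liver for 112 members, coloured by class, filled where limma's adjusted p was under 0.05. In eWAT most members above 100 nt lie above 1, whereas in liver the largest change is 0.88.

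The mRNAs of proteins that work with these RNAs were measured on the same arrays, and protein levels were not. In eWAT limma called 4.57% of all genes higher and 10.7% lower. There, 1 of 4 C/D core protein genes rose (*Nop56*) and 1 of 4 H/ACA core protein genes (*Nop10*, by 0.33). The list medians were 0.08 and 0.02. Of 13 assembly factor genes, *Rpap3* rose by 0.44 and *Shq1*, whose protein escorts new dyskerin, fell by 0.69. Of 18 genes of the U3 processome, which builds the small ribosomal subunit, 0 rose and 5 fell. The 5 include *Noc4l*, lower by 0.65, *Utp14a* by 0.47, *Imp4* by 0.41 and *Utp18* by 0.38. The same arrays showed the rise of both U3 genes, whose values may share probe signal.

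Of 6 measured Sm ring genes, 0 rose in eWAT and *Snrpd1* fell by 0.69, where 4.57% of all genes were called higher and 10.7% lower. Of 18 other spliceosomal protein genes, *Snrpa* of U1 rose by 0.48 and *Prpf31* fell by 0.39. Of 16 genes for snRNA transcription and 3′ ends, 3 Integrator genes fell, *Ints9* by 0.63, *Ints6* by 0.44 and *Ints12* by 0.39. Of 13 trimming and exosome genes, *Exosc8* fell by 0.67. Of 15 noncoding host genes, *Snhg11* and *Snhg5* rose by 1.14 and 0.55 and *Rian* and *Meg3* fell by 1.19 and 0.49. In liver, iWAT and BAT, 0 of the 107 genes of these lists passed the limma test in either direction. Few genes of any kind passed there. Of all genes, 0.162% were called higher and 0.499% lower in liver, 0% in iWAT, and 0.00406% and 0.0243% in BAT. At such shares a count of 0 says little about these lists. At an unadjusted p of 0.05, 16 of the 107 were higher and 29 lower in eWAT, where 12.4% and 17.4% of all genes were. There were 8 and 8 in liver (5.79% and 7.48% of all genes), 4 and 15 in iWAT (7.09% and 8.34%), and 7 and 15 in BAT (5.25% and 7.44%). For the 18 U3 processome genes the numbers higher and lower at that level were 0 and 6 in eWAT, 1 and 6 in BAT, 0 and 2 in iWAT, and 0 and 1 in liver.

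Of 7 other short RNA genes, 2 rose in eWAT, where limma called 4.57% of all genes higher and 10.7% lower. Rpph1, the RNA of ribonuclease P, measured 9.43 to 9.77 in wild-type and 10.66 to 11.07 in knockout mice and rose by 1.23, and Rmrp, the RNA of the related ribonuclease MRP, rose by 0.44 (limma adjusted p of 0.00352 and 0.0274). Rn7sk differed by 0.14 and Rny1 by 0.46. The median of the 7 was 0.41. Over 515 microRNA genes it was 0.07, with 20 called higher and 12 lower, over 51 replication-dependent histone genes -0.12, and over 80 ribosomal protein genes -0.03.

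Macrophage markers moved in eWAT alongside the small RNAs. All 7 measured of 8 listed fell by limma, with a list median of -2.26. Their mean was 8.23 to 8.53 in wild-type and 5.24, 7.89, 6.13 and 5.49 in knockout mice 1 to 4. The H/ACA means of knockout mice 1 to 4 were 6.38, 6.72, 7.54 and 6.52, against 5.14 to 5.35 in wild-type mice. Of 6 adipocyte markers, 5 rose and 1 fell, in a depot where limma called 4.57% of all genes higher and 10.7% lower. The part of cell composition in the rise of the small RNAs was not tested.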

How the data were processed

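The 32 arrays (Affymetrix Mouse Gene 2.1 ST) received 100 ng of biotin-labelled total RNA each. The paper names Trizol or the RNeasy kit for RNA extraction, without saying which served these arrays. How well either keeps RNAs this short was not tested. Whether a probe also reads host RNA from which the member has not been cut was not tested either. The authors deposited log2 values, 1 per gene symbol and array, with a file for each tissue. Software, probe summary, normalization and genome build are not given in the sources used here. Array medians within a tissue lay close together, from 3.00 to 3.06 in liver and from 3.65 to 3.73 in iWAT. Of each tissue, 1 or 2 entries with a blank or number-like name were left out. The deposited values were tested with limma 3.58.1 in R 4.3.3, knockout against wild-type within a tissue, adjusted over 24646 genes (threshold 0.05). The tissue contrasts used 1 joint fit. The number of arrays limits the precision, and p-values measure the spread between these mice. The 4 knockout liver titles name wild-type, whereas genotype and source name say knockout, which was used.

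Members, lists and tests were chosen with earlier results of these data known. The naming rule took up to 5 called members per direction and tissue, by size of change and with groups apart, or else the 3 with the smallest p, all Rnu and Scarna members, their hosts, and up to 4 called genes per list. Lengths and containing genes came from the RefSeq table of GRCm38.p6 (112 members matched by symbol). It gives no strand, so containment ignored it, unlike the plan. Where several genes contained a member, a listed noncoding host was taken first, then a protein-coding gene. Replicate numbers were not taken as pairs. The procedure was tested on simulated data. Figures used matplotlib 3.10.9.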

Additional observations from a re-analysis of the deposited data

Results flagged for a closer look

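The knockout effect differed between tissues by the joint limma fit for 19 members between eWAT and liver and for 9 between eWAT and BAT. Members were named in eWAT for their large change there, so a greater effect there than elsewhere is partly built in. Their values below are a description and no separate support. Among the members named in eWAT, the effect was greater there than in liver by 2.83 for Snora75, 2.78 for Rnu3a, 2.67 for Snora36b, 2.60 for Snora30 and 2.33 for Snora81 on the log2 scale. It was greater than in BAT by 2.43 for Snora75, 2.24 for Rnu3a, 1.94 for Snora81 and 1.63 for Snora30. Snora36b did not pass against BAT (1.54, adjusted p = 0.281). In all 64 groups of 4 arrays examined, over class means and named members, no array lay farther from the others than Dixon's limit for 4 samples allows.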

How the results depend on the processing

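The median log2 change of the members stayed above 0 in each tissue under every alternative run, with values of 0.22 to 0.34 in liver, 0.51 to 0.83 in eWAT, 0.39 to 0.69 in iWAT and 0.44 to 0.65 in BAT when 1 array was left out. The number of members called higher was less stable. With 1 array left out it was 0 to 12 in liver, 29 to 63 in eWAT, 0 to 1 in iWAT and 0 to 1 in BAT, the number called lower was 0 to 1 in eWAT (1 without knockout mouse 2), and the numbers with a greater effect in eWAT were 12 to 24 against liver, 0 to 5 against iWAT and 3 to 13 against BAT. The methods' t-test called 53, 68, 26 and 58 members higher in liver, eWAT, iWAT and BAT unadjusted, with 1 lower in eWAT and 2 in BAT. The share of all genes called was not taken for this t-test or for the runs with 1 array left out. Nor was it taken for the settings below, except in iWAT without the 4 arrays with B cell genes. Counts without such a share have no background to be judged against. By limma's unadjusted p, which is another test, 5.79%, 12.4%, 7.09% and 5.25% of all genes were higher in liver, eWAT, iWAT and BAT. After Benjamini-Hochberg adjustment the t-test called 0, 2, 0 and 0 members higher. In liver the count was 8 with a trended and robust prior and 6 without dim genes. In BAT it was 0 with equal array medians, quantile normalization, the replicate block, the 3 muscle arrays left out or the muscle mean as a covariate. In iWAT it was 50 without the 4 arrays with B cell genes. These settings on muscle and B cells were added after seeing the data. Quantile normalization gave 2 members against iWAT. The replicate number was not taken to pair the mice, since in no tissue did all 4 same-numbered deviations correlate above 0.1 (1 did in liver, 1 in eWAT, 3 in iWAT and 3 in BAT, over ranges of -0.06 to 0.11, 0.00 to 0.16, -0.38 to 0.67 and 0.01 to 0.22). With it as a block 2, 53, 0 and 0 members were called higher in liver, eWAT, iWAT and BAT. The 2 in liver were Rnu3a and Snord73a, and Snord17, Snord82 and Rnu73b no longer passed (adjusted p of 0.0637, 0.0875 and 0.0797). In eWAT 52 of the 55 were kept. The cause of these shifts was not tested. Signal over background limits the dim members, 12 to 19 per tissue.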
